A study of Mus musculus with 17 samples.

Results

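A pulse of 72 transcripts marked the round spermatid stage of mouse spermatogenesis. The 72 genes were taken from a table of 24594 genes by their levels in 5 sorted germ cell stages. A gene was kept where its mean in round spermatids (RS) was at least 10 RPKM and at least 4 times its mean in each of the other 4 stages. RPKM is the read count divided by exon length in kilobases and by library size in M (mega) reads. The members were chosen by the stage means of all 15 libraries, so their ratios between RS and the other stages are given as descriptions with no test.

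All cells came from the testes of C57BL/6JRj male mice that the labels call wild type and 3 months old, and were sorted by flow cytometry. The stages were spermatocytes at leptotene/zygotene (LZ) and at pachytene/diplotene (PD), RS, and elongating spermatids taken early (EES) and late (LES), with 3 libraries each, sorted on Hoechst 33342 and SYTO 16. Outside these stages, RS23 is a single library of round spermatids from juveniles 23 days old. PrmES is a single library of elongating spermatids that carry EGFP under the Prm1 promoter and, by its title, were sorted on that EGFP. Hoechst 33342 was the only dye named for either. The column names of these 2 libraries carry another prefix than those of the 15 stage libraries, so their source may differ as well. For them the titles were followed, since the age and genotype labels, given alike for all 17 samples, differ from them. The rule did not use RS23 or PrmES, which makes them the independent libraries of the series. Nothing says that the 3 libraries of a stage came from separate animals, so each p-value reflects library-to-library variation, possibly technical.

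Round spermatids are the haploid cells left by the second meiotic division. They build the acrosome and start the flagellum while their chromatin is still held by histones, and they transcribe actively until the nucleus begins to condense. Many messages made in this window are stored and translated later, in elongating cells, so a transcript that is gone again in elongating spermatids is not the usual pattern of a haploid gene. Several multicopy families of the mouse genome, on the X chromosome and on autosomes, are known for expression in these cells.

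Library totals ran from 90.6 to 159.2 M reads, and genes of the table held 48.4% to 87.7% of them. Of the RS markers, Acrv1, an acrosomal protein, was at 31.7 ± 5.06 RPKM in RS (SD, n = 3, here and below unless stated). It was at 1.14 ± 0.637 RPKM in PD, and at 3.05, 95.2 and 8.14 RPKM in EES. Prm1, a protamine of condensing chromatin, was at 170.0 ± 56.9 RPKM in RS, against 211.2 ± 52.3 RPKM in LZ and 23965.5 ± 564 RPKM in LES. Summed, the 10 RS markers used to check the label were at 339 to 361 RPKM in RS, under the 604 to 884 RPKM of EES and LES. Among them Tssk3, Cylc1 and Spata25 had higher means in both EES and LES than in RS. EES replicate 2 stood apart. Its summed level of 9 elongating spermatid markers was 50385 RPKM, against 131035 and 112908 RPKM in the other EES libraries, its summed level of 9 PD markers was 437 RPKM against 94.7 and 138 RPKM, and its summed level of 10 RS markers was 884 RPKM against 618 and 628 RPKM. All 9 elongating and all 9 PD markers were at 1 RPKM or more in it. The part of other cells in any result that rests on this library was not tested. Sorted cells were sequenced in bulk, so fewer cells of a type and less RNA per cell cannot be told apart.

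The members summed to 2397, 2397 and 2232 RPKM in the RS libraries. From LZ to LES the other sums were 79.8, 67.7 and 85.7 RPKM in LZ, 130, 116 and 165 RPKM in PD, 48.1, 719 and 93.7 RPKM in EES, and 86.3, 66.7 and 101 RPKM in LES. Every RS library lay above every library of the other stages for all 72 members, which the rule favours; among the 13260 genes tested below the share was 9.52%, and the rule itself took 0.543% of them. EES replicate 2 was the highest of the 3 EES libraries for 70 of the 72 members, against 68.3% of all tested genes. For 37 members it exceeded 25% of the RS mean, and for the other 35 every EES library lay below that. Without EES replicate 2 the rule took 197 genes.

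**Figure D1:**
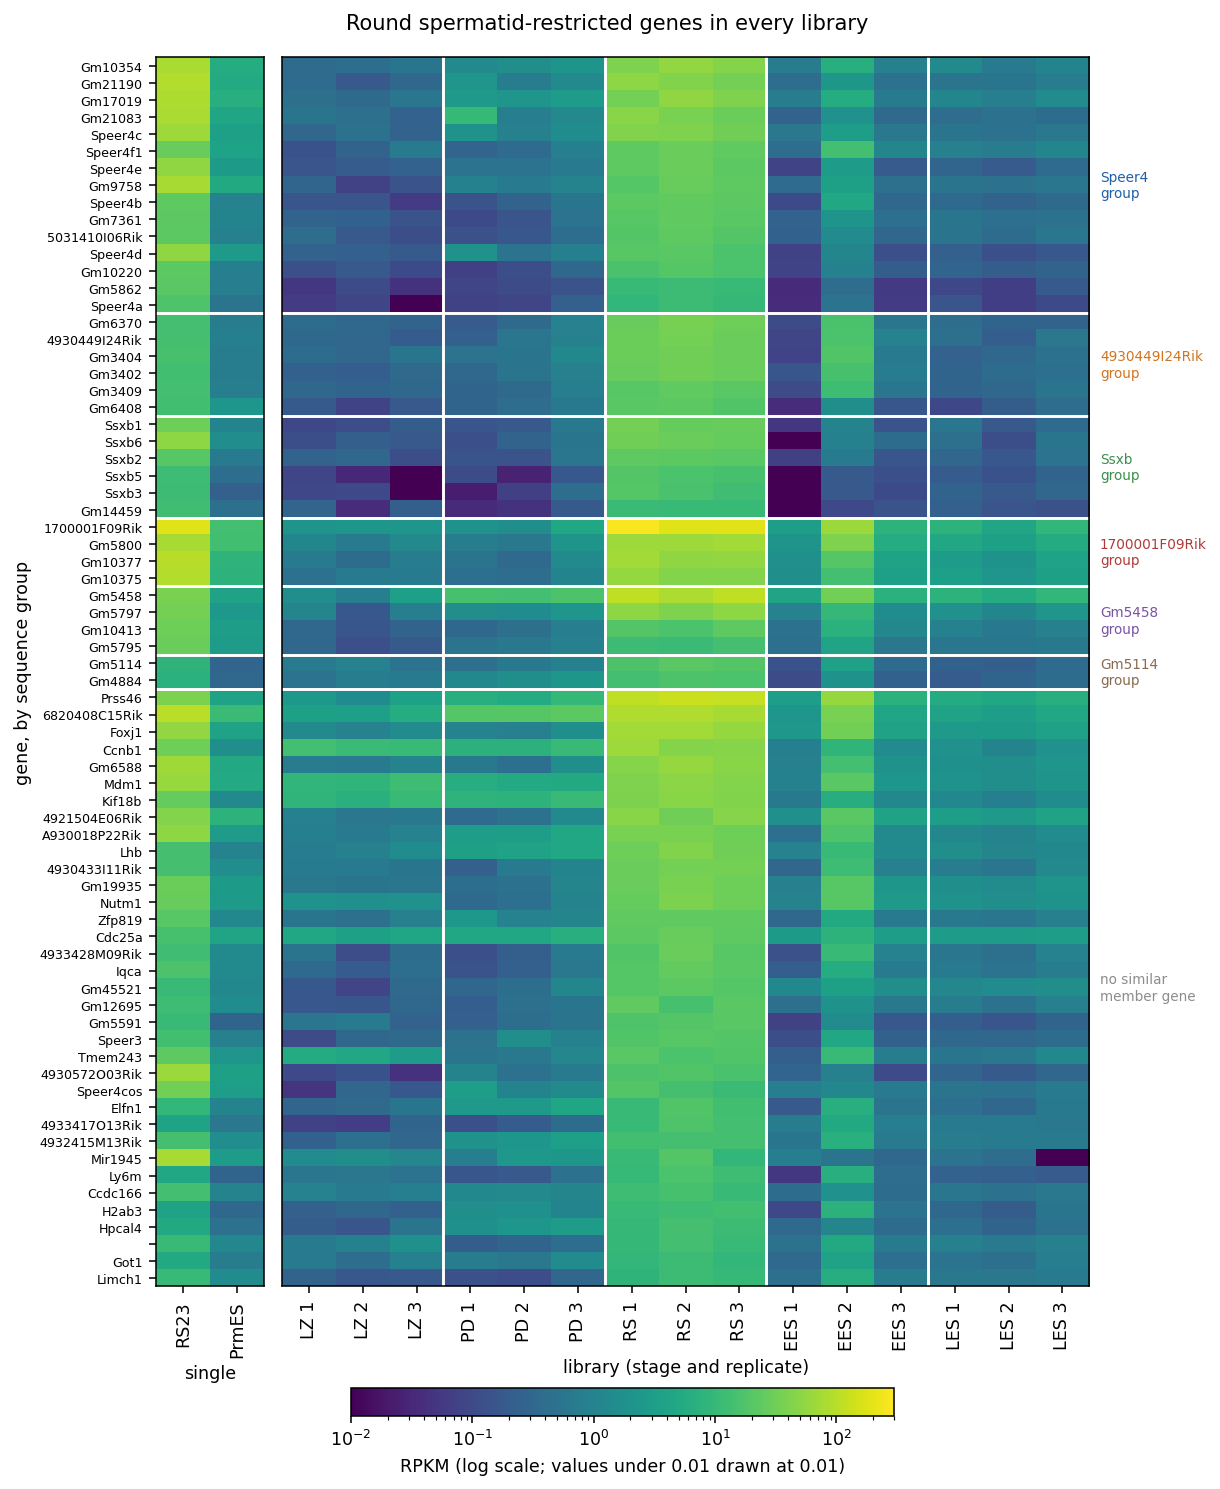
RPKM of the 72 genes in every library on a log colour scale, with RS23 and PrmES in the left panel and the 15 stage libraries in the right panel, and rows ordered by sequence group; 1 row carries no name. The RS columns are the brightest of the 15 stage libraries in every row, RS23 is brighter than PrmES, and EES replicate 2 is brighter than EES replicates 1 and 3 in most rows.

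Of the members, 66 are protein-coding, 3 are lncRNAs, 2 are transcribed pseudogenes and 1 is a microRNA. A clone-based name (Gm number or Rik) is carried by 39 of them (54.2%), against 11.2% of tested genes. Chromosome 5 holds 28 members (38.9%, against 6.57% of tested genes), chromosome 14 holds 9 (12.5%, against 3.84%) and the X chromosome 8 (11.1%, against 3.97%). The median exonic length, inferred from the values, was 1695 bases in members and 3537 in tested genes. Transcripts of 37 members resembled another member at 80% identity or more over at least 50% of the shorter one, and these fell into 6 groups; the other 35 members resembled no other member. Reads of near-identical copies can be placed on the wrong copy, so levels of single group members are uncertain and the summed levels are firmer. Copies of a group share their sequence and are not independent genes.

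The promoters of the groups are shown first, because many members have a promoter similar to that of another member. RefSeq promoters (GRCm38.p6, 250 bases before to 50 after the annotated start) were found for 60 of the 72 members. At an alignment of 80 bases or more, 37 of the 60 had a promoter similar to that of another member, in 6 classes. The largest class, with 16 members of chromosome 5, joined the Speer4 group and Speer3, whose transcript did not pass the limit for the group, at 68.5% to 100% identity. Capitals in the sequences below mark GTTGCCA (a half-site known for RFX factors), CCATTGT (known for SOX factors) and TAACNG (known for MYB factors) on either strand.
Speer4e (chr5:14938426-14938725, minus strand): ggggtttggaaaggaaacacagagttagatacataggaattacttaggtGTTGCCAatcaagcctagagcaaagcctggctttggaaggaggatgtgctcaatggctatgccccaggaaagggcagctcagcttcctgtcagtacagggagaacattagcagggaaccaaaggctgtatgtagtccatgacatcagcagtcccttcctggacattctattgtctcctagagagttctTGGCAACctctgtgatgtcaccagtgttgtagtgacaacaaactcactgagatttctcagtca
Speer4c (chr5:15714222-15714521, minus strand): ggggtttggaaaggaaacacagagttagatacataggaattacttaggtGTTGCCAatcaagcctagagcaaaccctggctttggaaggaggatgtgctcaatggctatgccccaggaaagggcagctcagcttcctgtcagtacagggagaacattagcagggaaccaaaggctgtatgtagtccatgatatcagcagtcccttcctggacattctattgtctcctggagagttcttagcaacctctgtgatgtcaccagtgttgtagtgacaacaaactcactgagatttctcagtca
Gm10413 (chr14:3394843-3395142, plus strand): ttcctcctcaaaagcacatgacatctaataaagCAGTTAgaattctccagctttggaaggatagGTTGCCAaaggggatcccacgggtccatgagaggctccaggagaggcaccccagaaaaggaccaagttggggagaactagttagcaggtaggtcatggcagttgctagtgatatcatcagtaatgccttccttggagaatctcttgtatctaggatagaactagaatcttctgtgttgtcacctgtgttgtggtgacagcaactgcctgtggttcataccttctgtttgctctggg
Gm5800 (chr14:51717083-51717382, minus strand): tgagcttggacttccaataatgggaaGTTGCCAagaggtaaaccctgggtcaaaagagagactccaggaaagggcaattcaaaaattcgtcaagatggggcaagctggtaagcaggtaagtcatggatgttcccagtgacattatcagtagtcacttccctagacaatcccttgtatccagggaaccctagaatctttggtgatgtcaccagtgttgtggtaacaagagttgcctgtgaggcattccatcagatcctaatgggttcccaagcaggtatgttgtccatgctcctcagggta
Gm3404 (chr5:146525551-146525850, plus strand): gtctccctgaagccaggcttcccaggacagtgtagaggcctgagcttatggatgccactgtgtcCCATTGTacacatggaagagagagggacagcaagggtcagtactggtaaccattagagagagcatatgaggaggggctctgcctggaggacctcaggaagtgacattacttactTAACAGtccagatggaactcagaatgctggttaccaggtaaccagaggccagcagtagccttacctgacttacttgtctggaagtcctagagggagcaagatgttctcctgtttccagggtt
Gm6408 (chr5:146481693-146481992, plus strand): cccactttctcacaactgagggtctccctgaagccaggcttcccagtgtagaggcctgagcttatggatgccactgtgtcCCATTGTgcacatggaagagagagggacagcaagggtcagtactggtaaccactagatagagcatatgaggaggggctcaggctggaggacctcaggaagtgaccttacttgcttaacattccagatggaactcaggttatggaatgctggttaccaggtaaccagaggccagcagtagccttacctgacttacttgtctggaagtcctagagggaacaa
Ssxb1 (chrX:8413055-8413354, plus strand): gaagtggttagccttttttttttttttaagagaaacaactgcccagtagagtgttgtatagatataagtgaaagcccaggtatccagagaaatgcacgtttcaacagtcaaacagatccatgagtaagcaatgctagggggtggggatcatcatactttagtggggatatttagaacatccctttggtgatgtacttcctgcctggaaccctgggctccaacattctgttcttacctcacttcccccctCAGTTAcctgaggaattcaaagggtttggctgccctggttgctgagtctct
Ssxb2 (chrX:8461677-8461976, minus strand): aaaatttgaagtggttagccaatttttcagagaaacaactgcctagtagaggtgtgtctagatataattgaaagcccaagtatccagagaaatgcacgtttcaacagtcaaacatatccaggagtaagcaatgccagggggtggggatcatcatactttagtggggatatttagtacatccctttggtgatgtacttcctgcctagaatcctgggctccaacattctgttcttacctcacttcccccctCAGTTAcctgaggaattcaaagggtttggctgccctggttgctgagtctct
Prss46 (chr9:110844256-110844555, plus strand): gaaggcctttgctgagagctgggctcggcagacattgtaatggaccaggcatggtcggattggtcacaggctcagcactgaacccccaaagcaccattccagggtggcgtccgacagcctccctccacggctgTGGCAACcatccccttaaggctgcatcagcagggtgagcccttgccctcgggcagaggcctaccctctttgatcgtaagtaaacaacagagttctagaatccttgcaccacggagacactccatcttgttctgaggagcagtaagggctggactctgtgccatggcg

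The first pair are near-copies from the Speer4 group, at 98.7% identity. The next pair come from different transcript groups of chromosome 14, whose promoters form 1 class; Gm5800 aligned with Gm5458 of the other group at 75.3% identity over 186 bases. With a looser limit (an e-value of 1e-05 among members only), 15 of the 16 chromosome 5 promoters of the Speer class aligned with promoters of the 5-member chromosome 14 class in 70 pairs, over stretches of 27 to 95 bases at a median identity of 74.7%. Another class of 4 members on chromosome 7 joined the Gm5114 group with Gm5591 and 4930433I11Rik, at 79.7% to 94.6% identity. Ssxb promoters split into classes of 3, with Ssxb1 and Ssxb2 at 92.3% identity in the one shown.

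GTTGCCA was present in 18 of 63 member promoters (28.6%), against 4.96% of the 12958 promoters of tested genes. It stood in 11 of 15 Speer4 group promoters, 2 of 4 of the Gm5458 group, the single one of the 1700001F09Rik group and 4 of 28 (14.3%) of the members with no similar member. CCATTGT was present in 8 member promoters (12.7%, against 2.89%), 7 of them from the 4930449I24Rik group, and TAACNG in 19 (30.2%, against 21.2%). TGACGTCA, the full cAMP response element known for CREM, was in 0 of 63, against 3.17% of the promoters of tested genes, and its core TGACGT, which the full element contains, was in 2 (3.17%, against 11.3%). TATAAA was in 4 (6.35%, against 7.78%). Each motif was searched on both strands, and since copies share letters, these shares count families more than genes.

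The Speer4 group was the largest, with 15 genes on chromosome 5 between 14910124 and 27501392 (GRCm38.p6). Speer genes encode testis proteins rich in glutamate, and 6 named genes (Speer4a, Speer4b, Speer4c, Speer4d, Speer4e and Speer4f1) and 9 clone-named genes made up the group, each 86.3% to 98.5% identical to its closest member. The group summed to 3.92, 3.60 and 3.68 RPKM in LZ, 22.4, 9.16 and 14.8 RPKM in PD, 404, 452 and 368 RPKM in RS, 4.49, 51.1 and 6.37 RPKM in EES, and 7.81, 6.05 and 8.47 RPKM in LES. Speer4c had 42.8, 40.2 and 32.2 RPKM in RS, where its next highest stage, EES, had 0.601, 3.22 and 0.615 RPKM, a ratio of means of 25.9. Speer4e had 23.6, 28.5 and 22.8 RPKM in RS and 0.0827, 2.87 and 0.196 RPKM in EES. Both genes were separated from EES in every library, EES replicate 2 included. Speer4a, at 10.2 ± 1.23 RPKM in RS, had a ratio of 50.3, and Speer4f1, at 25.3 ± 3.14 RPKM, the lowest of the group at 4.89, with 14.0 RPKM in EES replicate 2. Speer4b, at 23.0 ± 1.47 RPKM, and Speer4d, at 19.5 ± 2.80 RPKM, lay between them at 13.8 and 17.1. Speer3, outside the transcript group, had 18.5, 20.4 and 18.8 RPKM in RS and 0.120, 4.86 and 0.249 RPKM in EES.

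The Ssxb group was the most tightly confined to RS of the 6. Its genes are mouse members of the SSX family, whose human X-linked members are known as cancer-testis antigens. All 6 (Ssxb1, Ssxb2, Ssxb3, Ssxb5, Ssxb6 and Gm14459) lie on the X chromosome between 8413305 and 8810109, and their RS means were 59.8 to 81.6 times the next highest stage mean. Together they had 139, 119 and 114 RPKM in RS and 0.122, 3.12 and 1.05 RPKM in EES. Ssxb1 had 34.2, 26.7 and 27.2 RPKM in RS and 0.0505, 0.990 and 0.141 RPKM in EES. Ssxb6 was at 28.8 ± 2.53 RPKM in RS, Ssxb2 at 22.3 ± 0.608, Ssxb5 at 16.6 ± 2.26, Ssxb3 at 15.9 ± 3.58 and Gm14459 at 10.9 ± 0.296 RPKM. EES replicate 2 reached 0.873% to 3.37% of the RS mean in these genes, whereas in the 35 members with no similar member the median was 37.3%. Meiotic silencing of the X chromosome is known to keep most X-linked genes off in PD, and the Ssxb group summed to 0.587, 0.729 and 2.54 RPKM there, with 0.947, 0.805 and 0.726 RPKM in LZ.

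The other X-linked members were present in EES replicate 2. H2ab3, which encodes a short H2A variant of the testis, had 10.6, 12.3 and 13.2 RPKM in RS and 0.0952, 7.68 and 0.498 RPKM in EES, so its ratio of 4.36 rests on replicate 2. Its promoter holds TGACGT, 1 of the 2 members to do so. 4933428M09Rik, the other, was at 22.2 ± 5.32 RPKM in RS and 0.129, 11.04 and 0.949 RPKM in EES.

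The 6 genes of the 4930449I24Rik group lie side by side on chromosome 5, from 146481943 to 146540427, at 93.5% to 98.5% identity. They summed to 1.82, 2.73 and 5.41 RPKM in PD, 156, 182 and 156 RPKM in RS, and 0.571, 78.0 and 3.73 RPKM in EES. Of these copies, Gm3404 had 29.3, 32.5 and 28.2 RPKM in RS and 0.0782, 18.2 and 0.701 RPKM in EES, whereas Gm6408, at the lower end of the cluster, had 21.8, 22.1 and 18.6 RPKM in RS and 0.0377, 1.61 and 0.155 RPKM in EES. EES replicate 2 thus held 60.7% of the RS mean of Gm3404 and 7.74% of that of Gm6408. The transcript of Gm6408 is 93.5% identical to its closest member, its promoter is 92.6% identical to that of Gm3404 over 284 bases, and TAACNG, present in the other 5 genes of the group, is not in it.

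Chromosome 14 held the highest member. 1700001F09Rik was at 273, 178 and 191 RPKM in RS, with 3.29, 63.3 and 7.96 RPKM in EES; with Gm10375, Gm10377 and Gm5800 it formed a group that summed to 472, 341 and 365 RPKM in RS and 8.79, 138 and 21.04 RPKM in EES. Gm5458 had 113, 83.7 and 113 RPKM in RS and, unlike most members, a next highest stage before the peak, with 14.9, 13.9 and 16.8 RPKM in PD. The PD mean of Gm5458, 15.2 ± 1.51 RPKM, was however almost the same as its EES mean, 15.1 ± 16.3 RPKM. Its group, with Gm10413, Gm5795 and Gm5797, summed to 195, 152 and 204 RPKM in RS and 6.05, 54.7 and 10.5 RPKM in EES. On chromosome 7, Gm5114 and Gm4884 (95.1% identical) were at 19.1 ± 2.13 and 15.6 ± 1.74 RPKM in RS.

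Close copies outside the set were mostly under 10 RPKM. In the gene table, 15 further genes resembled the Gm5458 group, all of them under 10 RPKM in RS, and 13 had an RS mean at least 4 times the next. All 5 further Ssxb-like genes and all 3 further Speer4-like genes were also under 10 RPKM and past 4-fold. Others were not past 4-fold: Gm5592, similar to the Gm5114 group, had 6.34 RPKM in RS and a ratio of 2.90, and BC061237, similar to the 1700001F09Rik group, had 52.9 RPKM and a ratio of 3.54. The 3 genes similar to the 4930449I24Rik group reached 12.4 to 160 RPKM in RS and none was past 4-fold. Among them 1700001J03Rik, whose promoter is 93.9% identical to that of Gm3404 over 180 bases, had 160 RPKM in RS and 152 RPKM in EES. Outside the transcript group, 1700018F24Rik, with a promoter 88.8% identical over 259 bases, had 152 RPKM in RS and 116 RPKM in PD. Speer1, with a promoter 76.2% identical to that of Gm10354, had 18.03 RPKM in RS and 63.2 RPKM in PD. Similar promoters thus stood beside genes with and without the confined pattern.

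Of the 35 members with no similar member, 6820408C15Rik was second to Prss46, with 86.1, 88.1 and 78.5 RPKM in RS and 19.5, 19.5 and 22.3 RPKM in PD, its next highest stage. Foxj1, the master regulator of motile cilia, had 1.33, 0.975 and 1.46 RPKM in LZ, 1.01, 0.885 and 1.72 RPKM in PD, 70.5, 71.7 and 59.8 RPKM in RS, 2.45, 33.6 and 3.79 RPKM in EES, and 2.56, 2.76 and 3.71 RPKM in LES. Nutm1, a partner of the acetyltransferase p300 needed for histone hyperacetylation in spermatids, was nearest the 4-fold limit: it had 26.1, 39.2 and 30.7 RPKM in RS and 1.02, 20.2 and 2.57 RPKM in EES, a ratio of 4.03. Zfp819, a zinc finger protein, was the most even across RS libraries, at 24.3, 24.6 and 24.3 RPKM, and had 0.331, 5.14 and 0.693 RPKM in EES.

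Next come 4 members with known roles in cell division or at the centriole, put together by hand and not from a list. Ccnb1, cyclin B1, the partner of CDK1 at entry into division, had 13.9, 11.4 and 10.2 RPKM in LZ, 7.68, 7.39 and 10.98 RPKM in PD, 66.6, 44.2 and 46.2 RPKM in RS, 0.872, 8.35 and 1.47 RPKM in EES, and 1.81, 1.04 and 1.83 RPKM in LES. Cdc25a, the phosphatase that activates cyclin-dependent kinases, was at 24.2 ± 2.74 RPKM in RS and 5.29 ± 0.930 RPKM in PD, its next highest stage. Kif18b, a kinesin that acts on microtubule ends in mitosis, was at 43.2 ± 4.82 RPKM in RS and 8.91 ± 1.52 RPKM in PD. Mdm1, a centriole protein that binds microtubules, was at 45.2 ± 3.76 RPKM in RS and 9.81 ± 2.02 RPKM in LZ. These 4 kept a clear level in spermatocytes, from 3.50 to 13.9 RPKM in the LZ libraries. In EES replicate 2 Ccnb1 held 15.9% and Kif18b 14.1% of the RS mean, against 47.7% for Mdm1. Mdm1 shares 229 exonic bases with Gm47958 on the opposite strand, and strandedness of the libraries is not given in the sources used here.

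Prss46, of the testis serine protease cluster on chromosome 9, was the highest of the members without a clone-based name. It had 2.42, 1.48 and 3.63 RPKM in LZ, 6.59, 5.60 and 9.46 RPKM in PD, 112, 131 and 122 RPKM in RS, 3.28, 59.8 and 7.33 RPKM in EES, and 5.67, 4.78 and 6.53 RPKM in LES. Lhb, the beta subunit of luteinizing hormone, had 30.3, 42.4 and 31.9 RPKM in RS, 3.48, 3.75 and 4.70 RPKM in PD, and 0.955, 11.01 and 1.33 RPKM in EES. Lhb shares 138 exonic bases with Ruvbl2 on the other strand, so reads there cannot be told apart. Got1, the cytosolic aspartate aminotransferase, an enzyme of general metabolism, was at 10.1 ± 1.4996 RPKM in RS.

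**Figure D2:**
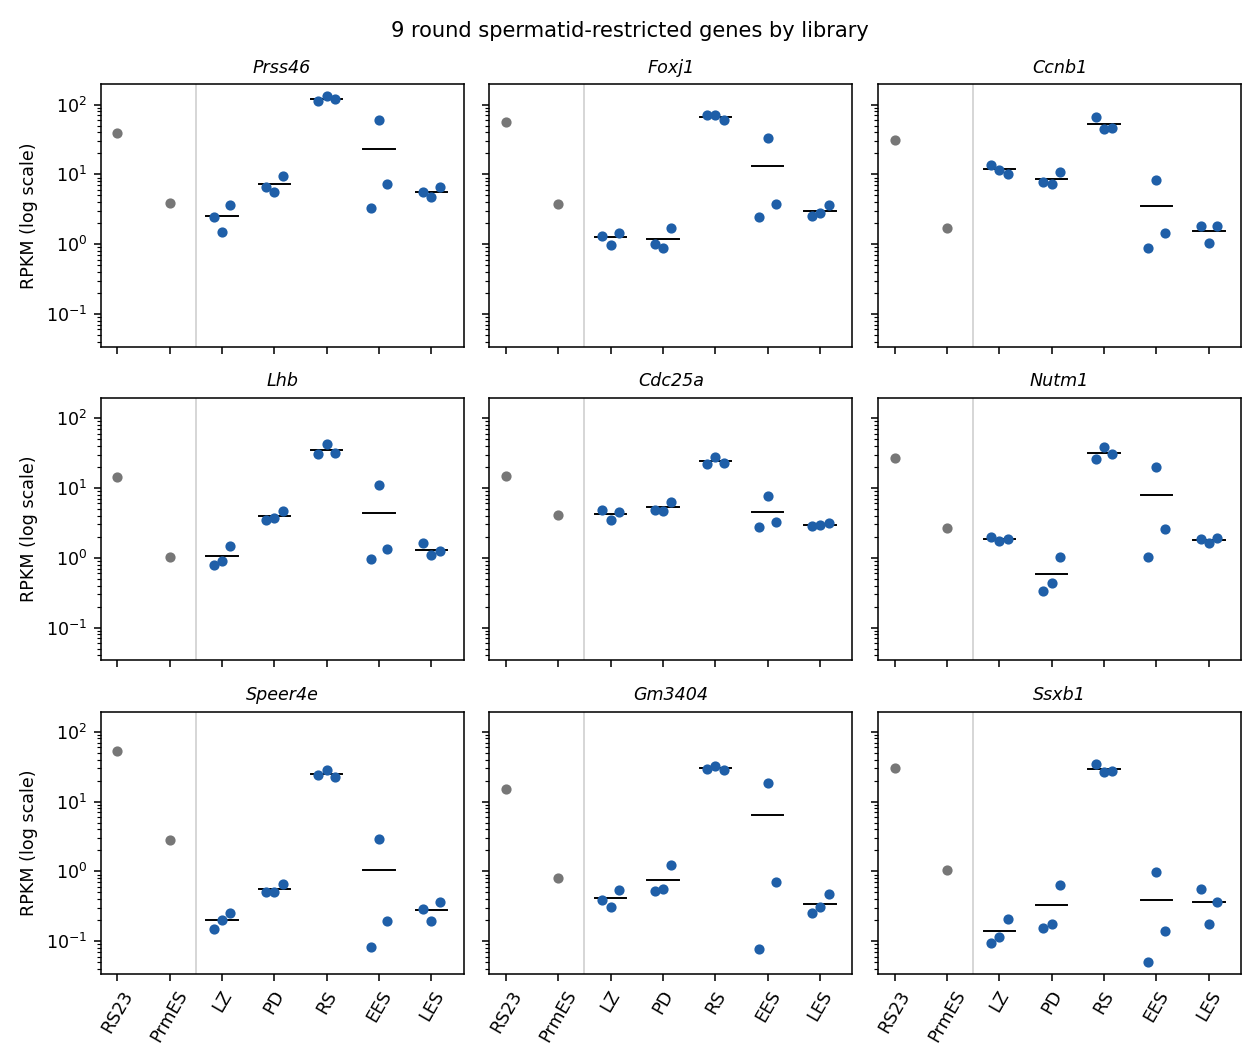
RPKM on a log axis for 9 of the genes, with RS23 and PrmES (grey, 1 library each) left of the line and the 5 stages (blue, 3 libraries each, bar at the mean) right of it. In each panel the RS points sit together above those of the other stages. The EES points are split by replicate 2, at 33.6 RPKM in Foxj1 and 0.990 RPKM in Ssxb1.

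Of the 6 non-coding members, Gm19935, a lncRNA of chromosome 8, was the highest. It had 28.4, 37.9 and 31.1 RPKM in RS and 0.880, 20.7 and 2.37 RPKM in EES. The lncRNAs 4933417O13Rik, within Kcnq1 on the opposite strand, and 4932415M13Rik were at 14.0 ± 3.27 and 13.9 ± 0.539 RPKM in RS. Of the transcribed pseudogenes, 4930572O03Rik was at 16.8 ± 1.497 RPKM and Speer4cos at 15.02 ± 4.05 RPKM; Speer4cos shares 335 exonic bases with Speer4c on the opposite strand, and the 2 cannot be told apart there without strand. Mir1945 had 10.9, 19.3 and 9.19 RPKM in RS and 0.815, 2.41 and 2.33 RPKM in PD, from 394 reads in the 3 RS libraries together over its 78 bases. It lies within a de novo gene of 9362 exonic bases on its strand, whose RS mean was 11.2 RPKM with 11.1 RPKM in the next stage, so reads of the microRNA and of a longer transcript cannot be told apart. The mature sequence is shown with its seed (bases 2 to 8) in capitals.
mmu-miR-1945 (chr16:11254381-11254402, minus strand, GRCm38.p6): uCUUCGCGgguacugucgggac

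In 17 lists of spermatid roles the share of members was near that of all tested genes, a result that depends on how the lists were drawn. Foxj1 and the Ssxb group genes, all of them members, were in none of these lists. Of 645 tested genes in 17 lists of spermatid roles, 3 (0.465%, against 0.543% of all tested genes) were members: Prss46 among 26 testis serine proteases and inhibitors, Nutm1 among 53 transcription and chromatin regulators, and H2ab3 among 83 sex-linked postmeiotic genes. Of 73 axoneme genes 41 (56.2%) had their highest mean in RS, as did 15 of 41 acrosome genes, 4 of 31 textbook CREM targets and 20.7% of all tested genes. These 3 lists held 0 members, and with a share of 0.543% over all tested genes, lists of this size say little about membership. Of the 10 RS markers used to check the label, Nutm1 alone was a member.

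The limits of the rule fell within a run of genes. Just inside 4-fold were Nutm1 (4.03), Gm19935 (4.07) and Limch1, an actomyosin-binding protein (4.07), and just outside were Tekt4, a flagellar tektin (3.96), Plk1, a mitotic kinase (3.96), and Srf, a transcription factor (3.88). Just inside 10 RPKM were Limch1 (10.03), Got1 (10.1) and Speer4a (10.2), and just outside were Gm1979 (9.88), 4930518J21Rik (9.68) and Ssxb8 (9.17). In the table of de novo genes, 69 members had a gene on their strand and 37 of those passed the same rule. Of the 32 that did not, 28 still had an RS mean at least 4 times the next and were under 10 RPKM. The other 4, under 4-fold, were Tmem243 (3.54), Lhb (2.27), Prss46 (1.79) and Mir1945 (1.01).

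The levels before the peak were compared between PD and LZ, a difference the rule does not fix, since it only caps both levels. In limma across all 13260 tested genes, 17 members were higher in PD than in LZ, 2 were lower and 53 did not pass (Benjamini-Hochberg adjusted p under 0.05 and at least 2-fold). Of all tested genes 25.5% were higher and 35.8% lower, and 70.4% had an unadjusted p under 0.05. The median log2 fold change, PD minus LZ, was 0.82 over members and -0.36 over all tested genes. The count depends on the scaling: with quantile normalization 52 members (72.2%, against 31.5% of all tested genes) were higher, at a member median of 2.19 and a median over all genes of -0.03. All 72 members were at 1 RPKM or more in each RS library, so each passed the filter on low values through RS alone. Only 10 to 16 members reached 1 RPKM in single LZ libraries, and 22 to 39 in single PD libraries. Other tested genes need not enter through RS, so members and all tested genes are not compared like with like. The same limit holds for LES and EES below.

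Members that rose before the peak had PD levels far under those of RS, which the rule requires of every member. Gm5458 had 14.9, 13.9 and 16.8 RPKM in PD, against 1.55, 0.822 and 3.35 RPKM in LZ, and its log2 fold change was 3.22 ± 0.63 (SE; limma, Benjamini-Hochberg adjusted p = 0.000467). Hpcal4, a neuronal calcium sensor, had 1.77, 2.26 and 2.91 RPKM in PD, against 0.210, 0.159 and 0.521 RPKM in LZ, and its log2 fold change was 3.07 ± 0.48 (limma, adjusted p = 7.68e-05). Speer4cos had 3.13, 1.04 and 1.40 RPKM in PD, against 0.0479, 0.301 and 0.168 RPKM in LZ, with a log2 fold change of 3.50 ± 0.55 (limma, adjusted p = 7.28e-05). Libraries of the stages did not overlap in these genes. Lhb also rose, with a log2 fold change of 1.95 ± 0.66 (limma, adjusted p = 0.0183), as did Elfn1, a synaptic membrane protein, at 2.99 ± 0.90 (limma, adjusted p = 0.00966). The Lhb call was lost without PD replicate 3 (limma, adjusted p = 0.0547), LZ replicate 1 (0.0606) or LZ replicate 2 (0.0521), and after scaling to reads in genes (0.0581). In the Speer4 group 7 of 15 genes rose (Speer4c, Speer4d, Gm9758, Gm10354, Gm17019, Gm21083 and Gm21190). One of these, Gm21083, had 9.97, 0.831 and 1.28 RPKM in PD, against 0.546, 0.441 and 0.256 RPKM in LZ, so its PD mean rests on replicate 1, and its call was lost without that library (limma, adjusted p = 0.0898) or LZ replicate 3 (0.0640).

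Among the members that fell was Tmem243, a small membrane protein. It had 0.518, 0.624 and 1.17 RPKM in PD, against 5.71, 4.67 and 2.83 RPKM in LZ, and its log2 fold change was -2.53 ± 0.96 (limma, adjusted p = 0.0318); it shares 404 exonic bases with Dmtf1 on the opposite strand. The call was lost without PD replicate 1, PD replicate 2, LZ replicate 1 or LZ replicate 2 (limma, adjusted p = 0.0749 to 0.0906), and without the filter on low values (0.0604). Its LZ libraries all lay above its PD libraries. The count of members lower in PD was 0 when PD replicate 1, PD replicate 2 or LZ replicate 2 was left out, and 1 without LZ replicate 1 or LZ replicate 3. For Ssxb genes no difference passed in either direction.

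Markers of other cells also differed between the spermatocyte libraries. PD replicate 3 was the highest PD library for 60 of 72 members, against 42.2% of tested genes, and its summed level of the 9 elongating spermatid markers was 287 RPKM, against 92.3 and 77.4 RPKM in the other PD libraries, with 32.8 RPKM for the 10 RS markers against 20.5 and 19.4 RPKM. LZ libraries held 850 to 1424 RPKM of the elongating markers, with all 9 at 1 RPKM or more. PD libraries held 2.96 to 3.87 RPKM of 15 Sertoli cell markers, against 87.4 to 150 RPKM in LZ. LZ replicate 3 had 307 RPKM of the 9 PD markers, against 85.3 and 77.3 RPKM in the other LZ libraries. The part of these cells in the member values was not tested. Without PD replicate 3, 14 members were higher and 3 lower in PD, and their median log2 fold change was 0.42.

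After the peak, no member passed the test between LES and EES. In limma 0 of 72 members were called in either direction, with 0 at an unadjusted p under 0.05, and of all tested genes 0.00754% were higher in LES and 0% lower, with 6.93% at an unadjusted p under 0.05. The median log2 fold change, LES minus EES, was -0.66 over members and 0.03 over all tested genes. It was positive in 8 of 72 members and in 6939 of the 13260 tested genes. EES replicate 2 set the sign of the member median. Without that library the median was 0.45 over members and 0.23 over all tested genes, and 65 of 72 members were positive, with 0 called. Without EES replicate 1 the medians were -1.41 over members and -0.13 over all tested genes. Markers of other cells differed between these stages too. Summed, 10 macrophage and endothelial markers were at 6.71, 26.7 and 109 RPKM in LES, against 3.94, 2.73 and 3.14 RPKM in EES. The sums of 15 Sertoli cell markers were 33.4, 15.5 and 56.1 RPKM in LES, against 14.71, 8.40 and 26.1 RPKM in EES. Of the macrophage and endothelial markers, Cd74 was at 79.5 RPKM and Lyz2 at 18.1 RPKM in LES replicate 3. Pecam1, Cdh5, Kdr and Tie1 were under 1 RPKM in every LES library. Vwf, on the same list, was above 1 RPKM in LES replicates 1 and 2, and also in EES replicates 1 and 3. LES replicate 3 was the highest in the sum of the macrophage and endothelial markers. Without it the median log2 fold change was -0.77 over members and -0.06 over all tested genes. The part of these cells was not tested. Prss46 had 5.67, 4.78 and 6.53 RPKM in LES, against 3.28, 59.8 and 7.33 RPKM in EES, so LES lay within the EES range. Ssxb3 had 0.264, 0.175 and 0.298 RPKM in LES, against 0, 0.175 and 0.1002 RPKM in EES, at a log2 fold change of 2.09 ± 1.15 (limma, adjusted p = 0.855).

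**Figure D3:**
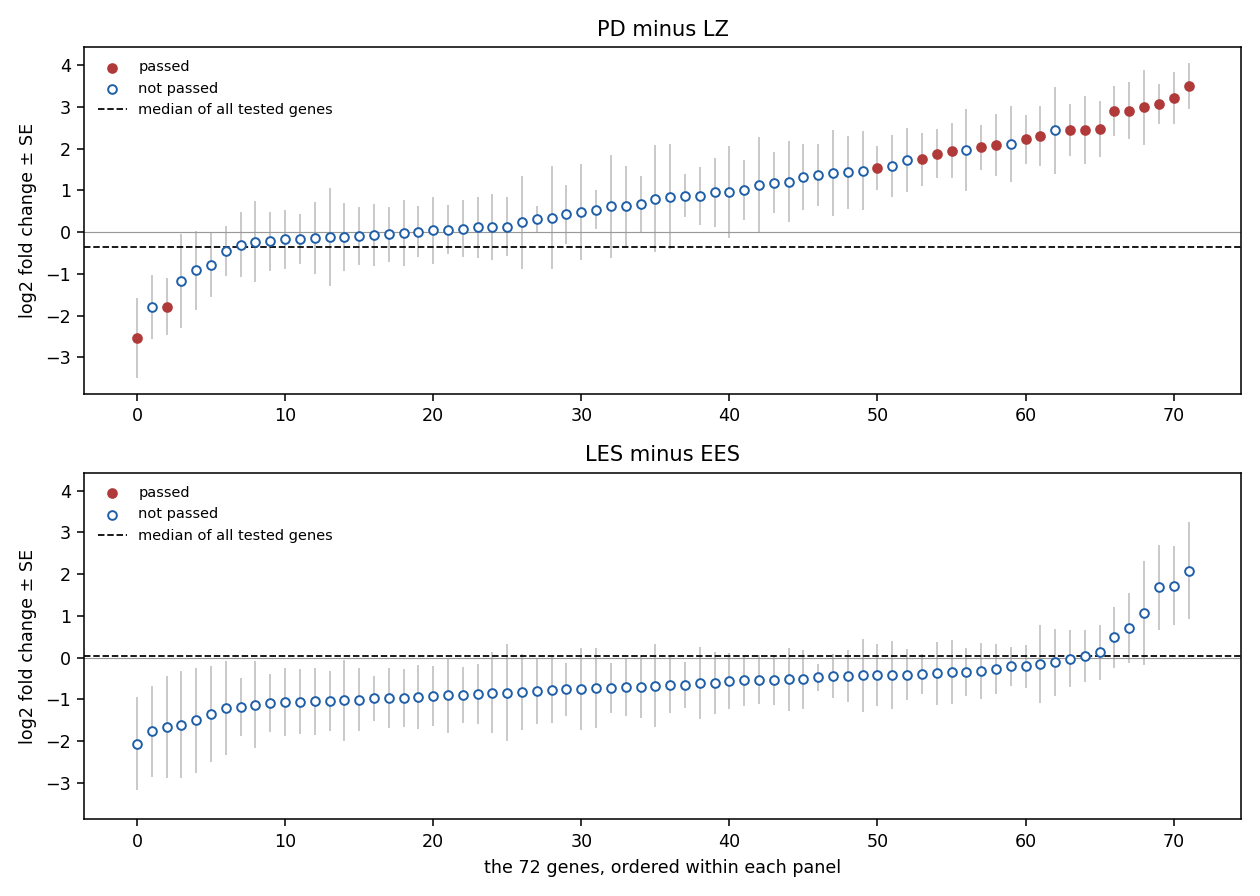
Log2 fold change with its SE for each of the 72 genes in PD minus LZ (top) and LES minus EES (bottom), ordered within each panel, with filled points where the limma test passed. In the top panel 17 genes passed above 0 and 2 below it, and in the bottom panel none passed and 8 lie above 0.

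The 2 libraries that the rule did not use bear on the levels after the peak alone, since neither is of spermatocytes. RS23 and PrmES are 1 library each, so the difference has no replicate check and no test. Members summed to 2536 RPKM in RS23 and 196 RPKM in PrmES. At least 4-fold higher levels in RS23 than in PrmES were found for 71 of 72 members, against 29.7% of tested genes and 42.6% of the 3798 genes at 10 RPKM or more in RS23. The median ratio of RS23 to PrmES was 14.3 over members and 2.13 over tested genes. The exception was Cdc25a, with 14.8 RPKM in RS23 and 4.05 RPKM in PrmES, a ratio of 3.65. Ssxb3, at 11.6 RPKM in RS23 and 0.236 RPKM in PrmES, had the highest ratio, 47.4. Foxj1 had 56.9 RPKM in RS23 and 3.76 RPKM in PrmES, Ccnb1 31.0 and 1.73 RPKM, and 1700001F09Rik 184 and 13.6 RPKM. RS23 held 366 RPKM of the 9 elongating markers, against 77404 RPKM in PrmES.

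**Figure D4:**
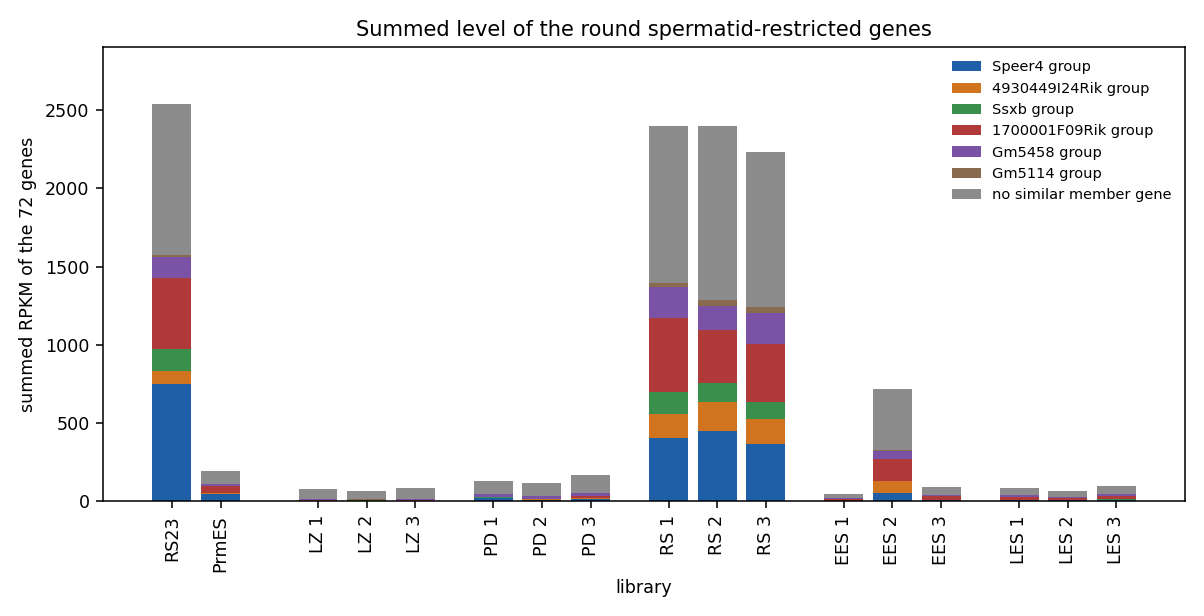
Summed RPKM of the 72 genes in each library, stacked by sequence group, with RS23 and PrmES at the left and the 15 stage libraries from LZ to LES at the right. RS23 reaches 2536 RPKM and the RS libraries 2232 to 2397 RPKM, EES replicate 2 reaches 719 RPKM, and the remaining stage libraries stay at or under 165 RPKM.

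The ratio of RS23 to RS varied between sequence groups, with 1 RS23 library and so no test. RS23 was at least 2-fold above the RS mean for 9 members (12.5%, against 10.8% of tested genes) and at least 2-fold below it for 13 (18.1%, against 16.3%), and the median ratio of RS23 to RS was 0.946 over members and 0.894 over tested genes. Both shares are near the background. All 15 Speer4 group genes were above 1, at a median of 1.72 and from 1.01 to 3.38. All 6 genes of the 4930449I24Rik group were below 1, at a median of 0.485 and from 0.446 to 0.648. Their summed levels were 748 RPKM in RS23 against 368 to 452 RPKM in RS for the Speer4 group, and 84.4 RPKM in RS23 against 156 to 182 RPKM in RS for the 4930449I24Rik group. Medians were 0.446 in the Gm5114 group, 0.749 in members with no similar member, 0.993 in the Ssxb group, 1.17 in the Gm5458 group and 1.38 in the 1700001F09Rik group.

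Named members spanned the range of this ratio. Mir1945 had 78.9 RPKM in RS23, against 10.9, 19.3 and 9.19 RPKM in RS, the largest ratio at 6.01. It was followed by 4930572O03Rik, with 63.3 RPKM in RS23 and 16.9, 18.3 and 15.3 RPKM in RS (3.76), and Gm9758, with 79.2 RPKM in RS23 and 19.9, 26.8 and 23.4 RPKM in RS (3.38). The smallest ratios belonged to 4933417O13Rik, with 3.93 RPKM in RS23 and 10.8, 17.4 and 13.8 RPKM in RS (0.282), Prss46, with 39.0 RPKM in RS23 and 112, 131 and 122 RPKM in RS (0.320), and H2ab3, with 3.85 RPKM in RS23 and 10.6, 12.3 and 13.2 RPKM in RS (0.321). RS values of these genes chose them as members, age, staining and the prefix of the column names differ together between RS23 and RS, and the part of each cannot be told apart. A low copy outside the set, Gm10406 of the Gm5458 group, had 7.27 RPKM in RS23 and 0.653 RPKM in RS; whether reads were shared between copies in the same way in both data sets was not tested.

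The groups also differed in how much of the RS level EES replicate 2 held. In that library the median level was 50.7% of the RS mean in the 4930449I24Rik group, 32.5% in the Gm5458 group, 31.1% in the 1700001F09Rik group, 15.7% in the Gm5114 group, 8.40% in the Speer4 group and 2.20% in the Ssxb group. Across the 72 members the ratio of RS23 to RS and the share in EES replicate 2 had a Pearson correlation of -0.37 on the log2 scale and a Spearman correlation of -0.38. Both measures are divided by the same RS mean and copies share sequence, so this is a description across genes. Within the 35 members with no similar member the Pearson correlation was -0.39 and the Spearman correlation -0.07.

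**Figure D5:**
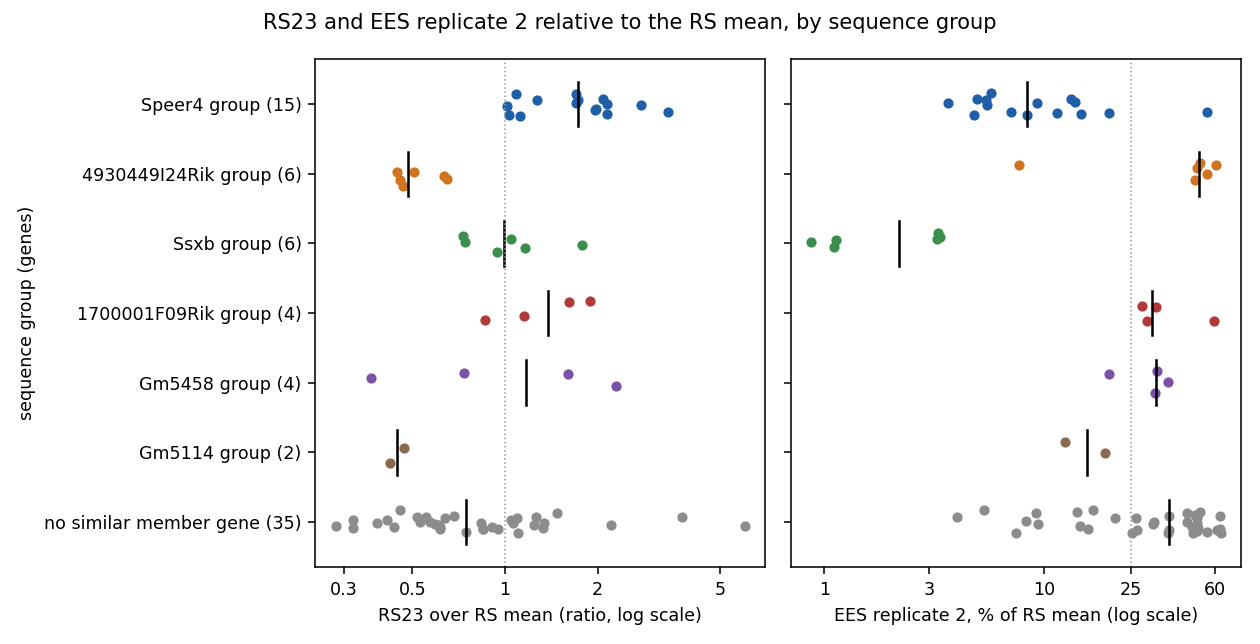
Ratio of RS23 to the RS mean (left) and level in EES replicate 2 as a percentage of the RS mean (right) for each gene, on log axes and by sequence group, with a bar at the median of each group and dotted lines at 1 and at 25%. The Speer4 group lies right of 1 and the 4930449I24Rik group left of it, and the Ssxb group stays under 3.37% in EES replicate 2.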

How the data were processed

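RNA of 17 sorted samples was sequenced as total RNA libraries. The authors deposited 2 tables of log2 values per library, of annotated and of de novo genes, and these are log2 of 100 times RPKM plus 1, as the values show. Per the submitters' processing notes, the tools were Trim Galore, STAR and StringTie and the builds GRCm38 and mm10; the deposited annotation of de novo genes names StringTie 1.3.4d, per the file headers, and gives other values such as coordinates. Read length, strandedness and the handling of multi-mapping reads have no entry in the sources used here.

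RPKM was recovered from the log2 values. In the table of de novo genes, whose exon lengths are known, every value lay within 0.01 reads of a whole number. For annotated genes the exonic length was inferred as the smallest that gave whole reads within 0.02 in every library with reads. A length was found for 22523 of the 24594 genes. Exonic lengths, read counts and the share of reads in genes rest on these inferred lengths. Genes at 1 RPKM or more in at least 3 of the 15 stage libraries were tested (13260). PD with LZ, and LES with EES, were compared with limma 3.58.1 (R 4.3.3, trended variance, all 15 libraries) on log2 of RPKM plus 0.01, which understates changes of low genes. RS23 and PrmES were described only. Transcripts and promoters were compared with blastn 2.17.0, with promoters and microRNAs from RefSeq (GRCm38.p6). The limma step was tested on simulated data.

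The members, marker and role lists were chosen with earlier results of these data known, and support no direction by themselves. Genes named are the 15 protein-coding members highest in RS and the 10 with the largest ratio, both passing over clone-based names, 5 non-coding and all X-linked members, members on role lists, genes nearest the limits, and extremes of each comparison; other names, such as the representatives of sequence groups, were chosen after their values were seen. Depth sets the precision of low levels, and the SDs cover the 3 libraries of a stage. The values of 1 member are not reported here singly; it is counted in all counts and sums.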

Additional observations from a re-analysis of the deposited data

How the results depend on the processing

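The 72 genes became 35 with an 8-fold limit, 26 with a minimum of 30 RPKM, 33 with median centring of libraries, 177 with stage medians in place of means, and 37 in the de novo table. Leaving out 1 library gave 51 to 197 genes, the highest without EES replicate 2, and leaving out LZ replicate 3 and EES replicate 2 together, an alternative chosen after seeing the data, gave 196. For PD minus LZ, 17 members were higher and 2 lower. The higher count was 9 with a pseudocount of 1 RPKM, 52 with quantile normalization and 30 with median centring. It was 25 when only the 2 stages were fitted, 30 without LZ replicate 3 and EES replicate 2 together, and 13 to 17 with 1 library left out. The lower count was 1 with a pseudocount of 1 RPKM, 0 without the filter, 1 with quantile normalization, 4 when only the 2 stages were fitted, and 0 to 3 with 1 library left out. The median of all genes was -0.36 in this comparison, and it was -0.83 after scaling to reads in genes, -0.03 after quantile normalization and 0.09 after median centring, so directions hold relative to that shift. The cause of these changes was not tested.

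Of 285 values of 19 single genes under these alternatives, 246 stayed on their side of the threshold, 39 no longer passed and 0 reversed. Between LES and EES 0 members passed under every alternative run. At least 4-fold higher levels in RS23 than in PrmES were found for 68 members with a pseudocount of 1 RPKM.

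The replicate numbers were tried as a block, which left 17 members higher and 2 lower in PD. Deviations of same-numbered PD and LZ libraries correlated at 0.03, 0.13 and 0.12, each best with its own number, as a hint from the data, and those of LES and EES at 0.00, -0.25 and 0.02, so the numbers were not taken to pair the samples.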
